A study of Mus musculus with 2 samples.

Results

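Nuclear receptors are transcription factors that read lipid-soluble hormones, vitamins and metabolites, or act without a known ligand, and coregulators are the proteins they recruit to switch genes on or off. The set described here was fixed by name as 35 mouse genes, 29 receptors other than those for progesterone, estrogen and thyroid hormone and COUP-TFII, and 6 coregulators. Probe sets whose only annotated symbol was one of these names were taken, which gave 95 probe sets for 33 of the 35 genes. Nr1h2 (LXR beta) and Ncor1 (a corepressor) had no probe set under a single symbol in the annotation used here and were not analysed. In 28 of the 35 genes the signal could be measured, out of 11833 measured genes in the series.

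The cells came from the uterine stroma of pregnant C57BL/6 mice on day 4, isolated by stepwise enzymatic digestion after epithelial clumps had been discarded. One group was Msx1Msx2 floxed control mice and the other Msx1Msx2-null mice, in which PRcre, a Cre recombinase expressed from the progesterone receptor gene, removed both homeobox genes wherever that receptor is active in the uterus, not in stroma alone. RNA was pooled within each genotype, from 5 mice in the design text and 4 in the extraction protocol, and hybridized to 1 array per genotype, so every value is a single measurement of a pool and no p-value could be computed. The comparison asked which stromal transcripts differ without Msx1 and Msx2.

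On day 4 the stroma is about to receive the blastocyst and to turn into decidua, a change directed by progesterone. Receptors outside the classical sex steroid group take part in this tissue in several ways. PPAR delta and the orphan receptor Nr5a2 have been tied to decidualization, retinoid receptors need to be kept in balance, and the p160 coactivators Ncoa1, Ncoa2 and Ncoa3 carry the output of the progesterone and estrogen receptors.

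The array labels held on the targeted genes. The brightest probe set of Msx1 read 1581 in control cells and 23.0 in null cells, and that of Msx2 read 63.7 and 14.5, both null readings being under the signal floor defined below. Whether these probe sets lie in the deleted segments is not given in the sources used here. All 12 stromal markers on a fixed list, among them Vim, Pdgfra and Col1a1, were above that floor in at least 1 array, but so were all 12 epithelial, 12 endothelial and 12 macrophage markers, so RNA of other cell types was present. Epithelial markers held 4 of 12 genes past 2-fold, 2 in each direction. Ltf (lactoferrin) went from 124 to 780 and Krt19, a keratin, from 353 to 724, while the gland factor Foxa2 went from 397 to 87.4 and the keratin gene Krt18 from 2822 to 1350, and the list had a median log2 ratio of -0.11. Macrophage markers had 12 of 12 negative ratios (median -0.44), of which Fcgr3 and Mrc1 were past 2-fold, at 2.12-fold and 2.03-fold lower. Endothelial markers had 12 of 12 negative ratios with 0 past 2-fold (median -0.57), led by Emcn, Pecam1 and Tek at -0.89, -0.80 and -0.76. Natural killer and T cell markers were positive in 8 of 9 measured (median 0.61), with Cd3d the 1 past 2-fold (2.16-fold higher). Smooth muscle markers were positive in 9 of 10 with 0 past 2-fold (median 0.37). Stromal markers had 8 positive and 4 negative ratios with 0 past 2-fold (median 0.10), and of 7 blastocyst markers 2 were measured, with 0 past 2-fold. Of all 11833 measured genes, 6185 had a positive and 5648 a negative ratio, and 1.59% were at least 2-fold higher and 1.80% lower. In pooled RNA, fewer cells of a type and less RNA per cell cannot be told apart. The 3'/5' signal ratio, a measure of RNA integrity, of Gapdh was 0.967 in control cells and 1.28 in null cells, and that of Actb 1.80 and 2.33.

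Measured receptor and coregulator genes lay within 2-fold between the arrays, as most measured genes did. A log2 ratio here is the log2 signal of the null array minus that of the control array, from the brightest probe set of a gene. Signals under a floor, the 50th percentile of the array (31.0 in the control, 30.1 in the null array), were raised to it, and a ratio with 1 signal under the floor is in general a lower bound. None of the 28 measured members was at least 2-fold higher, where 1.59% of all measured genes were, and 0 were at least 2-fold lower, where 1.80% were. With so few members, 0 in each direction is near the background and not a result about the members. Nor were the members closer than other genes, as the median size of the ratios was 0.28 in the 28 and 0.22 over all measured genes. The 23 members clear of the floor on both arrays had 10 positive and 13 negative ratios, a median of -0.078 and a range of -0.78 to 0.60. None of these 23 was past 2-fold, against 1.29% higher and 1.56% lower among all genes measured that way. Over all 11137 genes clear of the floor on both arrays the median was 0.019. The middle 50% of the ratios lay between -0.30 and 0.14 in the members and between -0.20 and 0.23 in all genes. At 1.5-fold, a size chosen after the values were seen, 2 of the 28 were higher and 3 lower, against 6.79% and 6.92% of all measured genes. Vdr among the higher and Nr1d1 and Rarb among the lower were measured in 1 array only, which fixes their direction. Of the 23, 1 was higher (Rxra) and 1 lower (Nr4a3), against 6.27% and 6.40% of all genes clear of the floor on both arrays.

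**Figure D1:**
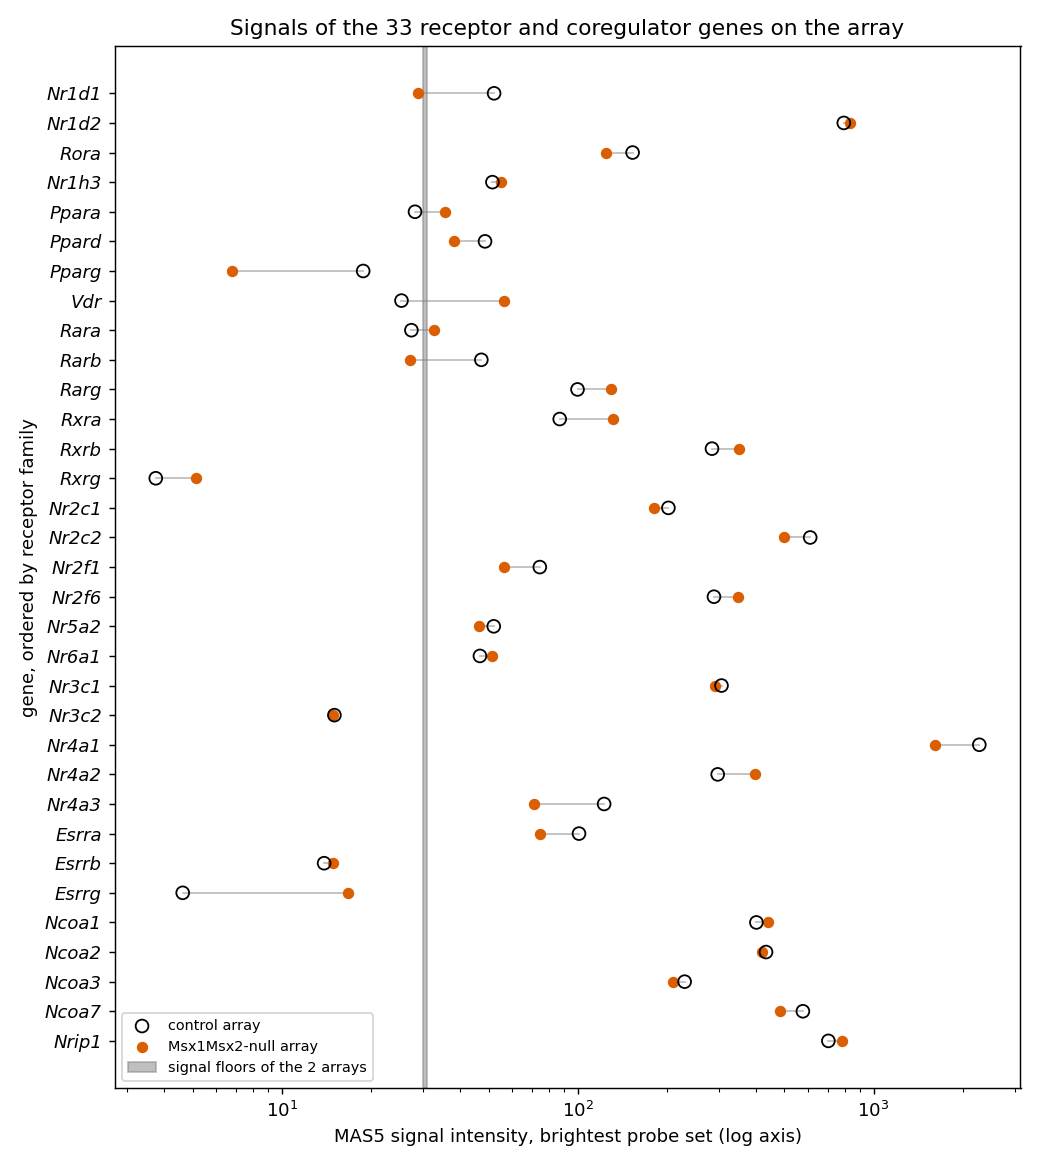
MAS5 signal intensity (log axis) of the brightest probe set of each of the 33 genes on the array, in the control array (open circles) and the Msx1Msx2-null array (filled circles), with 1 array per genotype and no error bars. Signals are drawn as deposited, so the widest pairs, those of Esrrg, Pparg and Vdr, have at least 1 signal under the floor. The 5 genes Pparg, Rxrg, Nr3c2, Esrrb and Esrrg are left of the signal floors at 31.0 and 30.1 in both arrays.

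As a scale for single probe sets, pairs of probe sets clear of the floor on both arrays were used. The 2 brightest such probe sets of 4690 genes gave an SD of 0.27 for the log2 ratio of 1 probe set. This covers probe noise and transcript forms and not differences between mice, pools or hybridizations. Of the 28 measured members, 5 had a ratio past 2 of these SDs (0.55), which is 17.9%, and 15.5% of all measured genes did. The 5 were Vdr, Rxra, Nr1d1, Nr4a3 and Rarb. For Vdr, Nr1d1 and Rarb one of the signals was under the floor, and the SD was not measured on such probe sets.

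**Figure D2:**
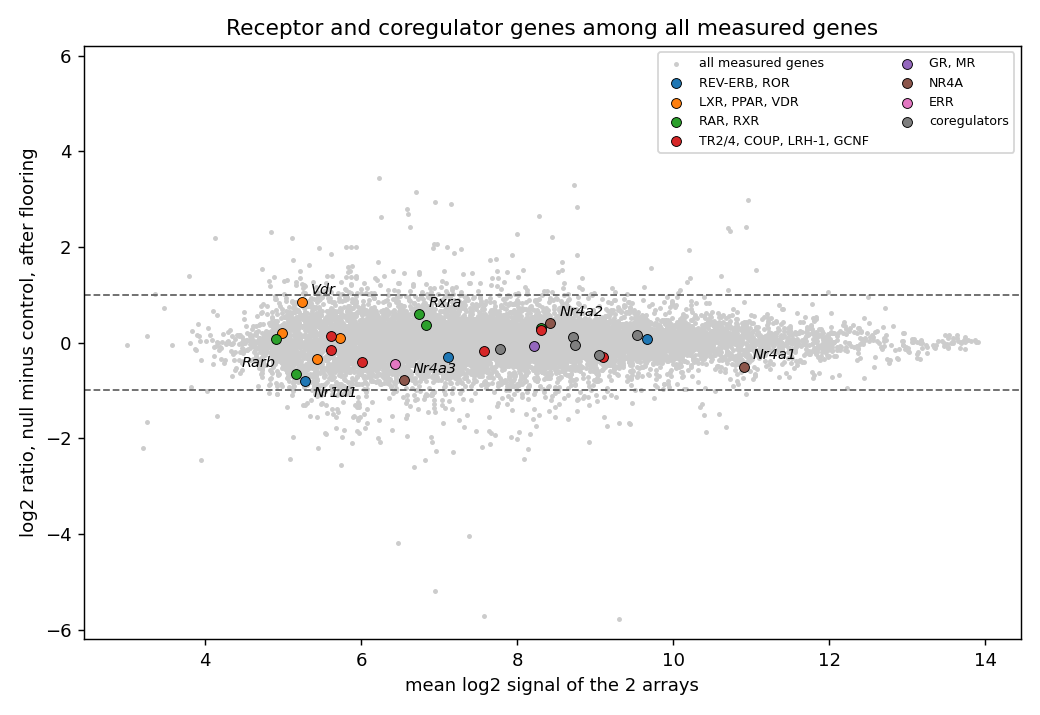
Log2 ratio, null minus control, after raising low signals to the floor, against the mean log2 signal of both arrays, for all 11833 measured genes (grey) and the 28 measured members (coloured by receptor family). All members lie between the dashed lines at 2-fold, from -0.79 for Nr1d1 to 0.86 for Vdr.

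Of the NR4A receptors, Nr4a1 and Nr4a3 had negative ratios and Nr4a2 a positive one on its brightest probe set. Only Nr4a3 was past 2 SDs of a single probe set (0.55). Nr4a1, Nr4a2 and Nr4a3 are orphan receptors without a classical ligand whose transcription is switched on within minutes by growth factors, cAMP and stress, as for other immediate early genes. Nr4a1 (Nur77) had a signal of 2279 in control cells and 1608 in null cells, a log2 ratio of -0.50 on its only probe set. Nr4a3 (Nor1) had 123 and 71.3, a ratio of -0.78 and 1.72-fold lower, on the one of its 3 probe sets above the floor. Nr4a2 (Nurr1) had 297 and 396, a ratio of 0.41, on its brightest probe set.

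The Nr4a2 value rested on that probe set. Its other 3 probe sets clear of the floor on both arrays gave 0.14, 0.015 and 0.029, so all 4 were positive and 3 of them close to 0. Nr4a1 and Nr4a3 thus went one way on 1 probe set each, and no probe set of Nr4a2 above the floor went with them.

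Other immediate early genes had mostly negative ratios, and few passed 2-fold. Of 17 measured genes on a list of 18, 16 had a negative ratio and 3 were past 2-fold, all of them lower, with a median of -0.46. Over all 11833 measured genes the median was 0.017, 5648 had a negative ratio and 1.80% were at least 2-fold lower. Egr3, Atf3 and Egr2 are transcription factors induced by the same kinds of stimuli. Egr3 went from 162 to 56.7 (2.85-fold lower), Atf3 from 2084 to 815 (2.56-fold lower) and Egr2 from 123 to 54.9 (2.24-fold lower). The 1 positive ratio on the list was 0.28, that of Myc, named after its value was seen. Enzymatic digestion of tissue can induce these genes, and its part in the ratios of Nr4a1 and Nr4a3 was not tested.

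The promoters of the 3 NR4A genes are shown because the genes share a stimulus response, yet Nr4a2 did not have a negative ratio as Nr4a1 and Nr4a3 did. Each sequence is the stretch of 250 bases before the RefSeq transcription start (GRCm38.p6), printed 5′ to 3′ on the strand of the gene. Capitals mark TGACG or its reverse complement CGTCA, the core letters of the cAMP response element. Nr4a1 lies at chr15:101266596-101266845 (+), Nr4a2 at chr2:57124004-57124253 (-) and Nr4a3 at chr4:48045055-48045304 (+).
Nr4a1: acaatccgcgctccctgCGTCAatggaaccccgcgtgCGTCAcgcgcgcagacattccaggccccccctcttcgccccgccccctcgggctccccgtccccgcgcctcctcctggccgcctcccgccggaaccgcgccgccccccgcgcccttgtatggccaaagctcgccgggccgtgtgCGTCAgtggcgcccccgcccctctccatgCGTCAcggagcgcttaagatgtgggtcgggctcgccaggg
Nr4a2: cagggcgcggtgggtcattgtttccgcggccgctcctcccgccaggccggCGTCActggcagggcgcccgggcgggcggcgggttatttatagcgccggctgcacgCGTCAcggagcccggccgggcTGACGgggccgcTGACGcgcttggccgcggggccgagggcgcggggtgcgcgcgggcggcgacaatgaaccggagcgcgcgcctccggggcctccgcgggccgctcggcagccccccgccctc
Nr4a3: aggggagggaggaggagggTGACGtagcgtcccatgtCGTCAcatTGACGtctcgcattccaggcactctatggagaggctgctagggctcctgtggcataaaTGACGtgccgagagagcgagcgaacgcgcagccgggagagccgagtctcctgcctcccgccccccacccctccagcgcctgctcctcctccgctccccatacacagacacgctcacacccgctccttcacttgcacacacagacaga

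Each of the 3 promoters held 4 matches to TGACG on either strand. Of the 32851 promoters in the RefSeq table, 17.8% held at least 1 such match before the start and 45, or 0.137%, held at least 4. The letters TGACG were chosen after the promoters had been looked at, and a match describes the sequence and is not a measured binding site. The full palindrome TGACGTCA, which contains TGACG, was in none of the 3 windows.

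REV-ERB and ROR receptors are the arms of the clock feedback loop that act on the same DNA sites, REV-ERBs as repressors and RORs as activators of Arntl (BMAL1). Nr1d1 (REV-ERB alpha) had a signal of 52.1 in control cells and 28.9 in null cells on its only probe set, at least 1.73-fold lower, with the null signal under the floor. Nr1d2 (REV-ERB beta) had 794 and 834, a log2 ratio of 0.071. Rora had 153 and 125, a ratio of -0.30, on its brightest probe set.

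Rora was negative on every probe set clear of the floor on both arrays. The other 4 gave -0.43, -1.13, -0.39 and -0.89, and the probe set at -1.13, from 94.4 to 43.1, was the single one past 2-fold among the 47 member probe sets clear of the floor on both arrays. A further probe set went from 22.8 to 36.1, the opposite way, with the control signal under the floor. Probe sets of 1 gene read the same 2 RNA pools and can differ by transcript form, so their shared sign is no replication.

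Clock genes that these receptors act on or work beside showed no shared direction. Of 13 measured genes on a list of 15, 7 were positive and 6 negative, 0 were past 2-fold, and the median was 0.070. The widest ratios were those of Cry1, a repressor of the loop, from 61.9 to 116 (0.91), Npas2, a partner of BMAL1, from 50.4 to 81.5 (0.69), and Nfil3, a repressor driven by the loop, from 982 to 608 (-0.69). Arntl itself, named after its value was seen, had 122 and 144, a ratio of 0.24.

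The 3 retinoid receptors clear of the floor on both arrays, Rarg, Rxra and Rxrb, had positive ratios on their brightest probe sets. RARs bind retinoic acid and work as dimers with RXRs, which also partner LXRs, PPARs and the vitamin D receptor. Rarg had a signal of 99.8 in control cells and 130 in null cells, a log2 ratio of 0.38, and Rxrb had 284 and 351, a ratio of 0.30. Rxra had 86.9 and 132, a ratio of 0.60 and 1.52-fold higher, but its other probe set above the floor, from 48.8 to 38.1, gave -0.36.

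Dim retinoid receptors were at the edge of measurement. Rara had 27.4 and 32.7, the control signal under the floor, with a bound of 0.074. Rarb, itself a retinoic acid target, had 47.2 and 27.1, at least 1.57-fold lower with the null signal under the floor. Rxrg was under the floor on both arrays at 3.74 and 5.13.

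Among 7 measured retinoic acid target genes, 3 were positive and 4 negative, 0 were past 2-fold and the median was -0.17. Cyp26b1, an enzyme that breaks down retinoic acid, went from 51.1 to 15.9, at least 1.70-fold lower. Crabp2, a retinoic acid binding protein, went the other way from 2.41 to 51.4, at least 1.66-fold higher, and Rai14 had a ratio of -0.47 with another probe set of opposite sign. These targets had no common direction.

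Receptors for lipids and vitamin D were dim on this array. Nr1h3 (LXR alpha), the oxysterol receptor that turns on cholesterol export, had a signal of 51.5 in control cells and 54.9 in null cells, a log2 ratio of 0.094. Ppard had 48.6 and 38.2, a ratio of -0.35, and Ppara, the fatty acid receptor of oxidative tissues, had 28.2 and 35.5, with a bound of 0.19, while another of its probe sets went the opposite way from 31.9 to 20.8. Pparg, the adipocyte regulator, was under the floor on both arrays at 18.8 and 6.76.

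LXR target genes were more often negative than positive. Of 8 measured genes on a list of 10, 6 were negative and 2 positive, 0 were past 2-fold, and the median was -0.34. Over all 11833 measured genes the median was 0.017 and 5648 were negative. Apoe, the lipoprotein ligand, went from 2766 to 1960 (-0.50), Lpcat3, a phospholipid remodelling enzyme, from 580 to 431 (-0.43), and Pltp, a phospholipid transfer protein, from 2107 to 1631 (-0.37). Macrophages also express Apoe, and all 12 macrophage markers had negative ratios, 2 of them past 2-fold, with a summed signal of 9758 in control cells and 6908 in null cells. Their part in the LXR target ratios was not tested.

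PPAR target genes showed both signs, with 5 of 8 measured positive, 0 past 2-fold and a median of 0.12. Cd36, a fatty acid receptor also found on endothelium and macrophages, went from 488 to 311 (-0.65), while Plin2, a lipid droplet coat protein, went from 687 to 954 (0.47). Fabp4, a fatty acid carrier of adipocytes and capillary endothelium, had 14.5 and 48.5, at least 1.56-fold higher. All 4 adipocyte markers on the array were under the floor on both arrays.

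Vdr had the highest ratio of the members. The vitamin D receptor had a signal of 25.4 in control cells and 56.3 in null cells on its brightest probe set, at least 1.81-fold higher. Its second probe set had 23.3 and 30.2, the latter just above the floor of 30.1, so the bound depended on 1 probe set. Of 5 vitamin D targets on the array only Calb1 and S100g, calcium-binding proteins that the uterus also controls through sex steroids, were measured. Calb1 went from 750 to 3804, 5.07-fold higher, and S100g from 6669 to 3435, 1.94-fold lower, while Cyp24a1, the vitamin D degrading enzyme and most direct target, was under the floor on both arrays at 8.82 and 8.75.

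The glucocorticoid receptor had a small ratio, and the mineralocorticoid receptor could not be measured. Nr3c1, the glucocorticoid receptor, had a signal of 306 in control cells and 290 in null cells, a log2 ratio of -0.078. Its other 2 probe sets clear of the floor on both arrays gave -0.53 and -0.092, so all 3 were negative. Nr3c2, the mineralocorticoid receptor, was under the floor on both arrays at 15.04 and 14.92.

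Glucocorticoid targets were measured in 12 of 12, with 3 positive and 9 negative, 0 past 2-fold and a median of -0.12. Fkbp5, a co-chaperone of steroid receptors that progesterone also induces, went from 315 to 200 (-0.65). Mt1, a metallothionein, went from 3358 to 5130 (0.61) and Cdkn1c, a cell cycle inhibitor, from 559 to 409 (-0.45). Of 6 measured receptor chaperones, among them Fkbp5, 0 were past 2-fold, and Stip1 and Hspa8 had 0.19 and 0.15, the latter with another probe set of opposite sign.

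The remaining orphan receptors lay within 1.5-fold. Nr2c1 (TR2) and Nr2c2 (TR4), which bind direct repeat sites, had signals of 203 and 180 (-0.17) and of 611 and 496 (-0.30) in the control and null arrays. Probe sets clear of the floor disagreed in sign within each gene, with 2 of 4 positive for Nr2c1 and 2 of 3 for Nr2c2. Nr2f1 (COUP-TFI) had 74.4 and 56.3, a ratio of -0.40 on its only probe set, and Nr2f6 had 289 and 347, a ratio of 0.26, with another probe set at -0.14.

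Nr5a2 and Nr6a1 were dim in both arrays. Nr5a2 (LRH-1), which supports steroid synthesis and decidualization, had 52.0 and 46.5, a ratio of -0.16. Nr6a1 (GCNF), best known from germ cells and early embryos, had 46.7 and 51.3, a ratio of 0.14, and a second probe set gave 0.12.

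Of the estrogen-related receptors, which drive mitochondrial genes without binding estrogen, only Esrra was measured. It had a signal of 101 in control cells and 74.4 in null cells, a log2 ratio of -0.44. Esrrb and Esrrg were under the floor on both arrays, at 13.9 and 14.9 and at 4.62 and 16.7. Ppargc1a, the coactivator that works with Esrra, went from 56.9 to 21.5, at least 1.89-fold lower. The other ERR targets had mixed signs. Over 8 measured genes, with Ppargc1a among them, 4 were positive and 4 negative, 0 were past 2-fold, and the median was -0.013, with Cycs, cytochrome c, at -0.45 and Mdh1 at 0.44, the latter against 3 of its other probe sets.

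On their brightest probe sets, coregulators had the narrowest ratios of the families with more than 1 measured member, from -0.25 to 0.15. Over all their probe sets clear of the floor on both arrays the ratios ran from -0.43 to 0.39. Those of the remaining orphan receptors, Nr2c1 to Nr6a1, ran from -0.44 to 0.41, so the narrower range held for the brightest probe sets only. Ncoa1 (SRC-1) had a signal of 402 in control cells and 438 in null cells (0.13), and its other probe set above the floor gave 0.22. Ncoa2 (SRC-2), the p160 coactivator tied most closely to progesterone action in the uterus, had 433 and 421 (-0.041), with other probe sets at 0.39 and -0.43. Ncoa3 (SRC-3) had 230 and 210 (-0.13), with its other probe set at 0.054.

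Nrip1 had a small positive ratio on each of 4 probe sets. Nrip1 (RIP140), a corepressor that binds agonist-bound receptors and is itself an estrogen and progesterone target, read 704 in control cells and 783 in null cells (0.15) with its brightest probe set, and the other 3 clear of the floor on both arrays gave 0.098, 0.11 and 0.24. Ncoa7, a coactivator linked to estrogen receptors and oxidative stress, had 577 and 485 (-0.25). Among 18 other coregulators on a fixed list, all measured, 9 were positive and 9 negative, 0 were past 2-fold and the median was -0.0088. Ppargc1a was the one with the widest ratio, and the arginine methyltransferase Carm1 and the coactivator Ncoa4 followed at 0.39 and -0.38.

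**Figure D3:**
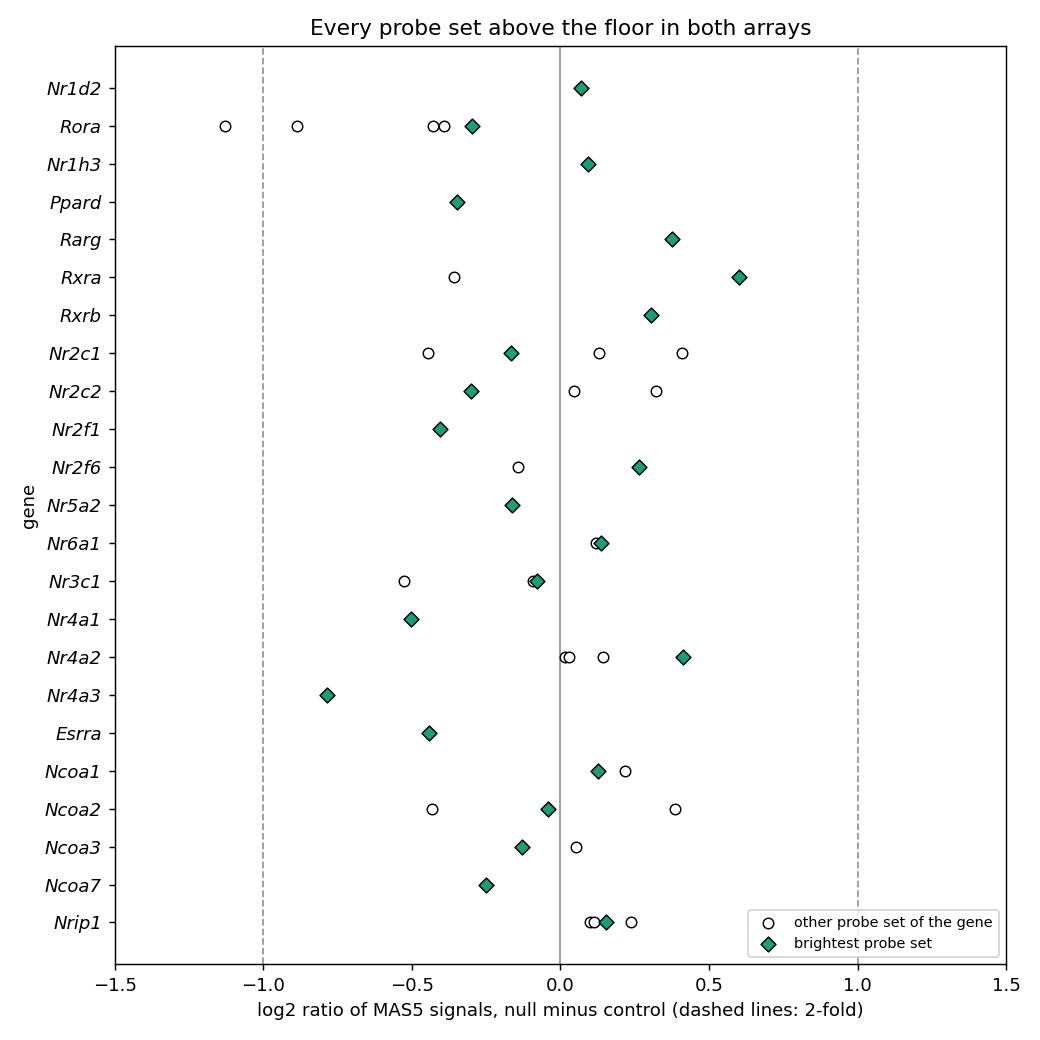
Log2 ratio of MAS5 signals, null minus control, of all 47 member probe sets clear of the floor on both arrays, by gene, with the brightest probe set as a filled diamond and the others as open circles (1 array per genotype). Of the 12 genes with at least 2 such probe sets, 6 have all on one side of 0, among them Rora and Nrip1, and 6 have both signs.

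Few of the receptors left out of the set could be measured. Of 16 other receptors with a probe set, 10 were under the floor on both arrays, and 0 of the 6 measured were past 2-fold. Pgr, the progesterone receptor, went from 1891 to 2663 (0.49), Esr1, the main uterine estrogen receptor, from 3956 to 3371 (-0.23), and Thra, a thyroid hormone receptor, from 243 to 276 (0.18).

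**Figure D4:**
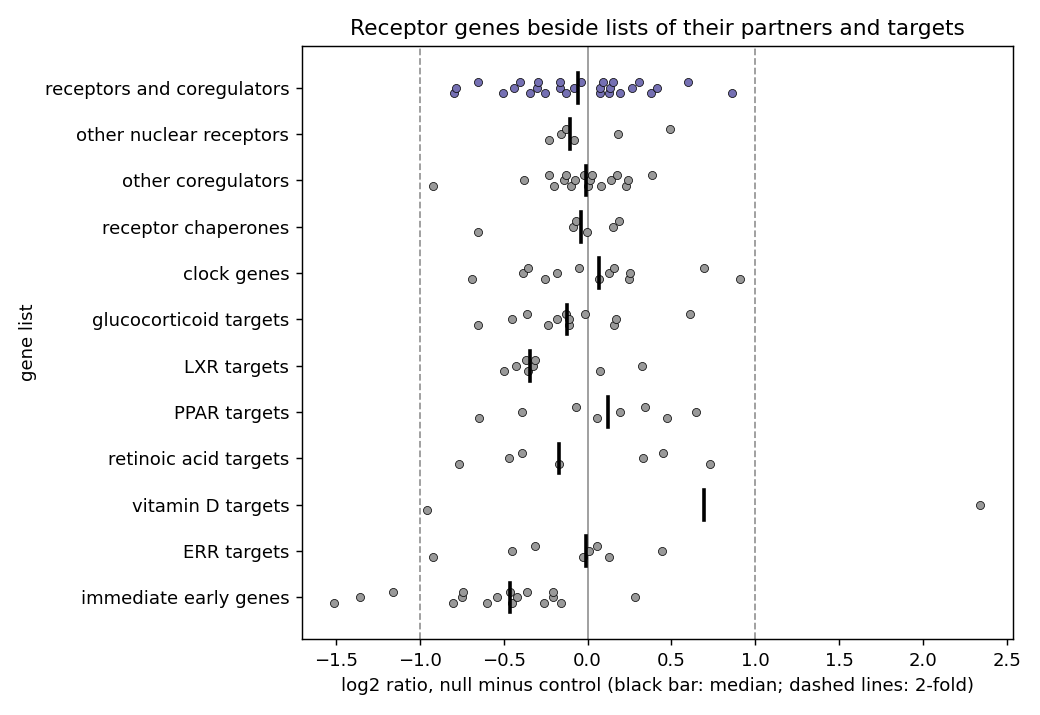
Log2 ratio, null minus control, of the 28 measured receptor and coregulator genes and of the measured genes on lists of their partners and targets, 1 point per gene, with the median as a black bar and 2-fold as dashed lines. The medians of the immediate early list (-0.46) and of the LXR targets (-0.34) lie farthest left of that of the members (-0.060). Those of the retinoic acid targets (-0.17), glucocorticoid targets (-0.12) and other receptors (-0.11) also lie left of it. The vitamin D list holds only 2 measured genes.

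The Msx proteins bind DNA through a homeodomain whose core letters are TAATTG. Of 52 member promoters of 32 genes in the RefSeq table (300 bases from 250 before to 50 after the start), 2 held TAATTG on either strand, 3.85%, beside 8.0% of all promoters. They belonged to Nrip1 and Nr2c1, shown as the member promoters with the letters of the factors removed in these mice. Only a stretch of 80 bases of each window is printed, on the strand of the gene, with the letters in capitals. Nrip1 is at chr16:76373948-76374027 (-) and Nr2c1 at chr10:94147681-94147760 (+), where the letters read as the reverse complement CAATTA.
Nrip1: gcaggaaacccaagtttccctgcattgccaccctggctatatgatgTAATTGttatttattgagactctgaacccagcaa
Nr2c1: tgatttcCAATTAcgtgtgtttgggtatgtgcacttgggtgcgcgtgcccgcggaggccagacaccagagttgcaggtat

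Counted from the start site, the match began at -154 in Nrip1 and at -243 in Nr2c1. The log2 ratios of these genes on their brightest probe sets were 0.15 and -0.17. Other probe sets clear of the floor on both arrays gave 0.098, 0.11 and 0.24 for Nrip1 and 0.41, -0.44 and 0.13 for Nr2c1. Whether Msx proteins act through these letters was not tested. The absence of these letters from the other windows says nothing about binding elsewhere.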

How the data were processed

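Per the submitters' processing notes, the authors used MAS5 and Affymetrix Expression Console 1, and they deposited an intensity on a linear scale for each probe set. The mean without the highest and lowest 2% of signals was 150.0 in each deposited column, so both had been scaled alike. Detection calls and background settings are not given in the sources used here, and MAS5 ratios of dim probe sets are noisy.

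Of 45101 probe sets, 34945 had 1 gene symbol in the platform annotation, 932 several and 9160 none, and 64 were controls. Genes were named only from 1-symbol probe sets and represented by whichever probe set was brightest over both arrays in log2. Log2 ratios were taken without further scaling, with the floor given in the text. The size for a call was 2-fold. Each genotype had 1 array, which limits the precision, and no test was run. The gene table and the SD of probe sets were checked on simulated data (Python 3.11.15, pandas 2.3.3). The alternatives were no floor, a floor at the 65th percentile, quantile normalization, centring on the median gene, the median over probe sets, leaving out _x_at and _s_at probe sets, and a pseudocount of 16.

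The members and lists were chosen with earlier results of these data known. The text names every member, and of each list the genes past 2-fold or otherwise up to 3 with the largest ratios, except that for stromal, smooth muscle, adipocyte and blastocyst markers no such genes are given. Myc, Arntl and S100g, and genes named only as under the floor or as background, fall outside that rule. Promoter sequences are from RefSeq (GRCm38.p6), where 32 of 35 members matched.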

Additional observations from a re-analysis of the deposited data

How the results depend on the processing

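With no floor, 2 members were at least 2-fold higher (Esrrg at a log2 ratio of 1.86 and Vdr at 1.15) and 1 was lower (Pparg at -1.48), in place of 0 and 0. All 3 had at least 1 signal under the floor, and without a floor 1797 of all genes were higher and 1772 lower, against 188 and 213. Raising the floor to the 65th percentile left 18 members measured, with 0 past 2-fold, and 97 and 123 of all genes were. Under the other 5 alternatives 0 members passed 2-fold in either direction. The median of the measured members lay between -0.077 and -0.012 over all 7 alternatives. No measured member changed sign under any of them, but most could hardly have changed one. No floor and the pseudocount keep the direction of the 2 signals, and centring shifted every ratio by only 0.017. The higher floor dropped dim members, and the median over probe sets leaves genes with 1 measured probe set as they were. Taking the median over probe sets moved Vdr to 0.41, Rxra to 0.12 and Nr4a2 to 0.086, each by more than the SD of a single probe set. No paired analysis was possible because each genotype had 1 array, and for the same reason no array could be left out. Signals near the floor limit Vdr, Rarb, Nr1d1, Rara and Ppara to bounds.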

Other observations

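Several receptors could not be measured in these cells on this array. Pparg, Rxrg, Nr3c2, Esrrb and Esrrg were under the floor in both arrays, as were 10 of 16 other receptors, among them the liver and gut factors Hnf4a and Hnf4g, the bile acid and xenobiotic receptors Nr1h4, Nr1i2 and Nr1i3, and the gonadal factor Nr5a1. A signal under the floor does not show that a gene was silent. Of the 95 member probe sets, 47 were above the floor in both arrays, 11 in 1 array and 37 in neither.

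Among the member promoters, the receptor site letters AGGTCA were found in 9 of 52 (17.3%), beside 16.3% of all promoters. The longer AAAGGTCA, the site bound by NR4A monomers, which contains AGGTCA, was in 2 (3.85%, Rxra and Rxrg) beside 1.51%. The E-box CACGTG was in 2 overlapping windows of Rara alone (3.85% beside 7.15%), and TGACGTCA in 1 (1.92%, Nr6a1) beside 1.79%. The letters TGACG, chosen after the promoters were seen, were in 15 (28.8%) beside 20.8%. These are counts of letters on both strands, with promoters of 1 gene sharing sequence.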
